A study of Mus musculus with 8 samples.

Results

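The transcription factors that lay out the forebrain and the cerebral cortex were followed through neurospheres of mice with and without Cbx3. They comprised 8 genes, Lhx2, Emx2, Emx1, Gli3, Otx2, Bcl11b, Tbr1 and Eomes, chosen by name and found on the array as every non-control probe whose transcript accession belongs to one of them. These were 8 of the 20660 named genes and 11 of the 55681 probes, with 1 probe each for Lhx2, Emx2, Emx1, Gli3 and Otx2 and 2 probes each for Bcl11b, Tbr1 and Eomes. Neurospheres are balls of dividing neural stem and progenitor cells kept in suspension by growth factors. Per the labels they were started from the ganglionic eminence, a swelling of the ventral telencephalon that gives rise to the striatum and cortical interneurons, of mouse embryos at E14.5, with each sample grown from its own brain, and RNA was taken at the quaternary stage. The medium held 20 ng/ml EGF and 20 ng/ml bFGF, with 7 days on low-attachment plates. There were 3 groups on 1 slide of single-colour arrays. KO adherent samples (2 arrays) and KO floating samples (3 arrays) were Cbx3-deficient, and WT floating samples (3 arrays) were wild type. Cbx3 encodes HP1gamma, which recognises methylated lysines on the tail of histone H3. The labels state neither the kind of Cbx3 allele nor how adherent culture was done, and no wild-type adherent sample was included, so culture could be compared in KO cells alone.

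In the embryo these factors divide the forebrain by position and later by cell type. Otx2 sets up the anterior neural plate, Lhx2, Emx2 and Emx1 specify the cortical (dorsal) progenitor zone, and Gli3 acts there mainly as a repressor of Hedgehog targets that keeps ventral identity out. Eomes, Tbr1 and Bcl11b come on as cells leave the progenitor state: Eomes in intermediate progenitors of the cortex, Tbr1 in early deep-layer neurons, and Bcl11b in subcerebral projection neurons as well as in the striatal neurons that the ganglionic eminence produces.

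Emx2 and Emx1 are paralogous homeobox genes, and Bcl11b is the member with a difference past the threshold below, so the starts of these 3 are shown. Each window runs from 250 bases before to 50 after the annotated start, on the gene's strand, from RefSeq on GRCm38.p6, and the CpG dinucleotides (letters CG, the same on both strands, without overlap) are in capitals. All 8 genes matched that table, with 12 windows between them. The arrays measured transcripts and not these windows, and the letters are given as description only. The Emx2 window lies at chr19:59458440-59458739 (+), the Emx1 window at chr6:85187681-85187980 (+) and the Bcl11b window at chr12:108003365-108003664 (−).
Emx2: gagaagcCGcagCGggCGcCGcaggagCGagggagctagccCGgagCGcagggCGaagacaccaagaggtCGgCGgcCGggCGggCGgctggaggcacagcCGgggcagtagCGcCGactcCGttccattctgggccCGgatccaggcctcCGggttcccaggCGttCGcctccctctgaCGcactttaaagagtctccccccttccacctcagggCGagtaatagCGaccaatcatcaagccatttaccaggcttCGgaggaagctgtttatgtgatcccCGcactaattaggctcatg
Emx1: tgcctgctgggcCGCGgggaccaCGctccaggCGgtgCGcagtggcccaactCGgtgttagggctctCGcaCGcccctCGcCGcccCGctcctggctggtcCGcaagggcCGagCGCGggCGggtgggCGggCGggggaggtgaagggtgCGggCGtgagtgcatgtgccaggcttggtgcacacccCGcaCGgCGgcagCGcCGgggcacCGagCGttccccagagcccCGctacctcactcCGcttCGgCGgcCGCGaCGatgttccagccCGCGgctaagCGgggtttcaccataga
Bcl11b: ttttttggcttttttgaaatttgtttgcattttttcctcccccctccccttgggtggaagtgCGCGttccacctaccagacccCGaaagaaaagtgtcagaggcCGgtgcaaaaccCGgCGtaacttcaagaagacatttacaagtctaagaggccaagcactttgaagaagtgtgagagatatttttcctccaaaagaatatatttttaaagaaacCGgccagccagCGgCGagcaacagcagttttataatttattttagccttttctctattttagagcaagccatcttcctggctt
The Emx2 window held 26 CpGs, a number reached by 16.9% of the 32851 promoter windows of this length, whose median was 7. The Emx1 window held 37 (reached by 5.58%) and the Bcl11b window 9 (reached by 45.8%). Gli3 had 39 (reached by 4.45%), and both Lhx2 windows were CpG-rich at 34 and 29, whereas the 4 Otx2 windows had 6 to 16, Eomes 10 and Tbr1 7. Both Emx paralogues thus start in CpG-rich sequence, while Bcl11b has a count near the median.

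All levels below are log2 of the processed signal minus the 75th percentile of the same array, so 0 is the brightness of the array's upper-quartile spot. Levels are compared only across arrays within a probe, because brightness also depends on the probe. Before any result, Cbx3 was examined as a check of the genotype labels. Its brightest probe read -2.03 on KO adherent 1, -1.86, -2.76 and -1.75 on KO floating 1, 2 and 3, and 5.83 and 5.95 on WT floating 1 and 3. It read 5.91 on the array labelled KO adherent 2 and -2.17 on the array labelled WT floating 2, opposite to those labels, and a second Cbx3 probe gave the same split. It is not known here whether either probe falls within the sequence removed from the KO allele. Comparisons were therefore made with all 8 arrays as labelled and again with the 6 arrays whose labels the Cbx3 signal did not oppose. The 75th percentile ranged from 616.3 to 865.4 in processed signal, and 44.5% to 55.4% of spots were well above background.

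The members fell into a detected and an undetected set. Lhx2, Emx2, Otx2 and Gli3 were well above background on all 8 arrays, Bcl11b on 7, Tbr1 on 1, and Emx1 and Eomes on none. No member's spot was saturated. The early patterning genes were thus measurable in every culture except for Emx1, and the differentiation genes Eomes and Tbr1 were near or below the limit of the assay. Bcl11b, which also comes on as cells leave the progenitor state, was detected on 7 arrays, so detection did not divide the members by stage alone. As a check of the labelled tissue, the ganglionic eminence genes Lhx6, Meis2, Etv1 and Gad1 were above background on all 8 arrays, Dlx2 on 7 and Dlx1 on 6, while Nkx2-1, Gsx2, Dlx5, Isl1 and Gad2 were on none.

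**Figure D1:**
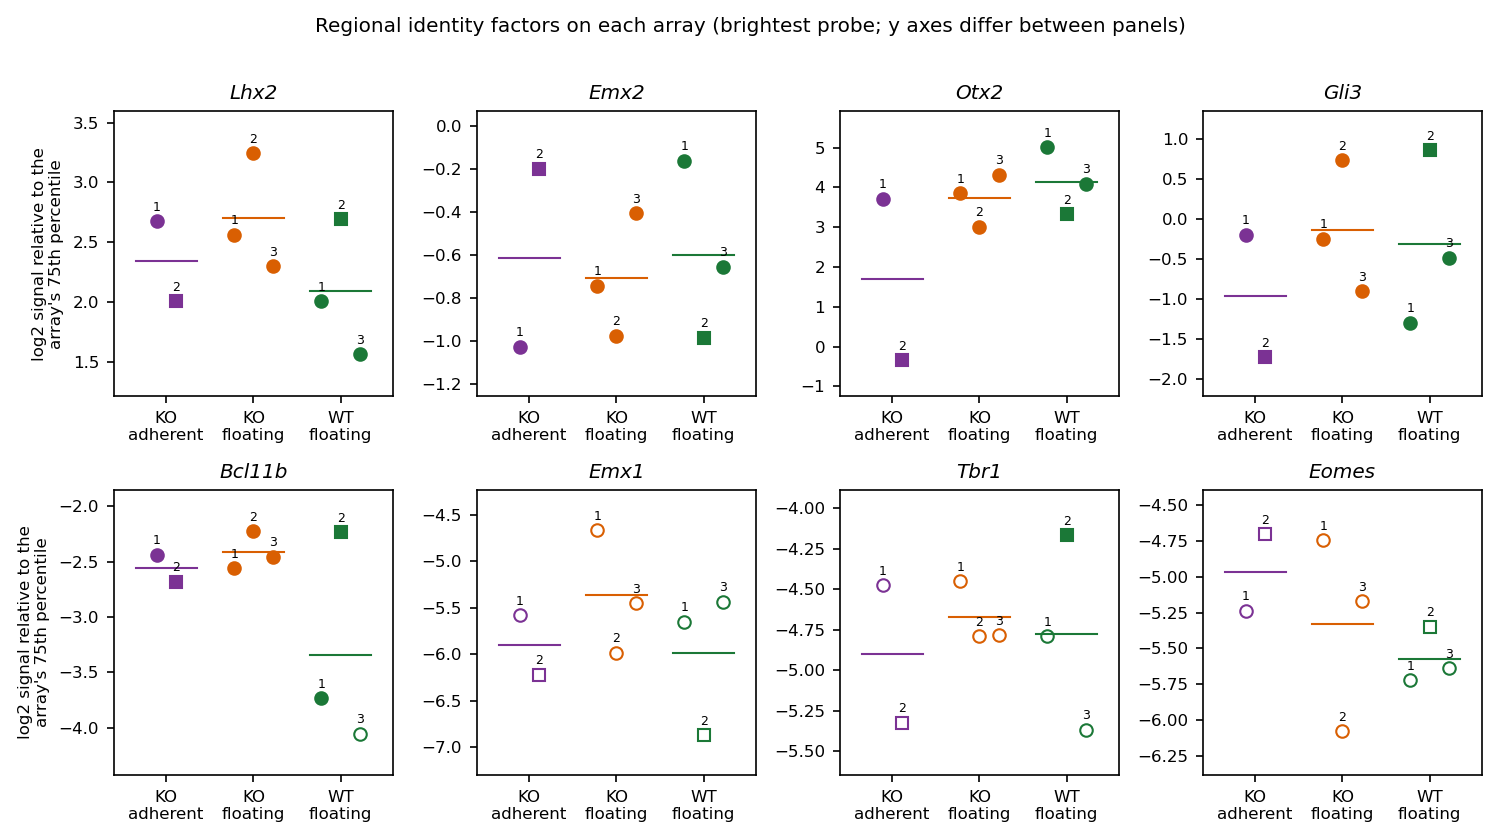
Level of each of the 8 genes on each array by its brightest probe, as log2 signal relative to the array's 75th percentile (y axis, scaled separately in each panel). Numbers are replicates, horizontal lines are group means, filled symbols are spots well above background, open symbols are not, and squares are the arrays labelled KO adherent 2 and WT floating 2, whose Cbx3 signal opposed the label. Otx2 drops to -0.34 on KO adherent 2 and Bcl11b is lowest on WT floating 1 and 3.

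Lhx2, a LIM-homeodomain selector of cortical fate, read 2.68 and 2.01 on KO adherent 1 and 2, 2.56, 3.24 and 2.30 on KO floating 1 to 3, and 2.01, 2.69 and 1.57 on WT floating 1 to 3. The highest array was KO floating 2 and the lowest WT floating 3, and the labelled groups overlapped. As labelled, the group means were 2.34 ± 0.47 in KO adherent (SD, n = 2), 2.70 ± 0.49 in KO floating (SD, n = 3) and 2.09 ± 0.57 in WT floating samples (SD, n = 3). The neighbours in that order did not differ beyond their spread. From lowest to highest Lhx2 spanned 1.68, a wider span than 87.2% of the 11859 genes above background on all arrays, whose median span was 0.79.

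Emx2, which controls the size and area map of the cortex, read -1.03 and -0.20 on KO adherent 1 and 2, -0.74, -0.98 and -0.41 on KO floating 1 to 3, and -0.16, -0.99 and -0.66 on WT floating 1 to 3. High and low arrays were scattered over the groups, which overlapped throughout. The means were -0.61 ± 0.59 in KO adherent, -0.71 ± 0.29 in KO floating and -0.60 ± 0.41 in WT floating samples (SD, n = 2, 3 and 3), closer together than the arrays of any 1 group. Its span, 1.82-fold from the lowest array to the highest, exceeded that of 56.2% of genes, the most even profile of the 4 members detected everywhere.

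Otx2, a homeobox gene of the forebrain and midbrain that stays on in choroid plexus and retina, had the widest span. It read 3.72 on KO adherent 1 but -0.34 on KO adherent 2, 3.85, 3.01 and 4.32 on KO floating 1 to 3, and 5.01, 3.33 and 4.09 on WT floating 1 to 3. One array stood apart: next above the array labelled KO adherent 2 came KO floating 2 at 3.01, and the other 7 arrays together ran from 3.01 to 5.01. From lowest to highest the signal changed 40.8-fold, a wider span than 99.7% of genes. The KO adherent mean of 1.69 ± 2.87 (SD, n = 2) is therefore the mean of values on either side of a gap, against 3.73 ± 0.66 in KO floating and 4.14 ± 0.84 in WT floating samples (SD, n = 3 each).

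Gli3 read -0.19 and -1.72 on KO adherent 1 and 2, -0.24, 0.74 and -0.90 on KO floating 1 to 3, and -1.30, 0.86 and -0.48 on WT floating 1 to 3. The highest 2 arrays were WT floating 2 and KO floating 2, and the lowest was KO adherent 2. It averaged -0.96 ± 1.08 in KO adherent samples (SD, n = 2), -0.14 ± 0.82 in KO floating samples (SD, n = 3) and -0.30 ± 1.09 in WT floating samples (SD, n = 3), means that differed by no more than the SD of the widest group. The span was 6-fold, wider than that of 95.8% of genes.

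The arrays highest in Gli3, KO floating 2 and WT floating 2, also differed from the rest in immediate early genes, mostly transcription factors induced within minutes of a stimulus. The signal summed over 15 such genes, in multiples of the 75th percentile, was 127 on KO floating 2 and 125 on WT floating 2, and 507 to 819 on the other 6 arrays. Nr4a1, one of them, read 4.83 on KO floating 2 and 4.50 on WT floating 2, and 7.43 to 8.01 elsewhere. Lhx2 read 3.24 on KO floating 2 and 2.69 on WT floating 2. It read 2.68 on KO adherent 1, which had an immediate early sum of 799. The part of this difference in the Gli3 and Lhx2 levels was not tested.

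Bcl11b, also known as Ctip2, read -2.44 and -2.68 on KO adherent 1 and 2, -2.56, -2.23 and -2.46 on KO floating 1 to 3, and -3.73, -2.23 and -4.05 on WT floating 1 to 3. The 5 KO-labelled arrays ran from -2.68 to -2.23, and the array labelled WT floating 2 was level with the highest of them. WT floating 1 and 3 lay below all of these, and WT floating 3 was not well above background. The second Bcl11b probe, for another transcript accession of the gene, read -2.77 and -3.50 on KO adherent 1 and 2, -2.89, -2.31 and -2.76 on KO floating 1 to 3, and -4.92, -2.24 and -5.54 on WT floating 1 to 3. It was not well above background on WT floating 1 and 3, so both probes were lowest on the same pair of arrays. The array labelled KO adherent 2 was the exception to a match with Cbx3: its Cbx3 signal was as high as on WT floating 1 and 3, but its Bcl11b signal, on both probes, was above theirs.

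Emx1, the paralogue of Emx2 restricted to the dorsal telencephalon, read -5.58 and -6.22 on KO adherent 1 and 2, -4.66, -5.98 and -5.45 on KO floating 1 to 3, and -5.65, -6.87 and -5.43 on WT floating 1 to 3, none of them well above background. Tbr1, a T-box factor of early cortical neurons, read -4.48 and -5.32 on KO adherent, -4.45, -4.79 and -4.78 on KO floating, and -4.79, -4.17 and -5.37 on WT floating arrays. Only the value on the array labelled WT floating 2 was well above background, and its second probe was not on that or any other array. Eomes, also called Tbr2, ranged from -6.08 to -4.70 on its brighter probe and from -6.86 to -5.41 on the other, with no spot well above background. These 3 genes gave no value to compare between groups, and the arrays cannot separate a low level from none.

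The comparison of KO floating with WT floating cultures addresses the effect of Cbx3 loss on these factors, as far as the labels hold. With all 8 arrays no tested member passed the threshold. The 5 members that passed the filter on dim probes gave 0 calls at a Benjamini-Hochberg adjusted p of 0.05 in limma, and 0 with groups that did not overlap. Among all 22647 features 0.00442% were called, a single one, and 8.4% did not overlap, and 391 features had an unadjusted p below 0.05, none of them a member. Bcl11b differed by 0.93 (SE 0.45, 95% interval -0.12 to 1.98, limma adjusted p = 0.813) and Lhx2 by 0.61 (SE 0.38, interval -0.27 to 1.498, limma adjusted p = 0.813), both higher in KO. Emx2 gave -0.11 (interval -0.84 to 0.63), Otx2 -0.42 (interval -2.75 to 1.91) and Gli3 0.17 (interval -1.44 to 1.77). The intervals of Otx2 and Gli3 leave room for changes of more than 2-fold in either direction.

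Without the 2 arrays, the differences of all 5 tested members in the same comparison lay further from 0. Bcl11b averaged -2.41 ± 0.17 in KO floating (SD, n = 3) and -3.89 ± 0.23 in WT floating samples (SD, n = 2), a difference of 1.48 (SE 0.20, 95% interval 0.98 to 1.98) that missed the threshold (limma adjusted p = 0.0667). Lhx2 averaged 2.70 ± 0.49 in KO floating and 1.79 ± 0.31 in WT floating samples, a difference of 0.91 (SE 0.34, interval 0.04 to 1.79, limma adjusted p = 0.188). Emx2 (-0.30), Otx2 (-0.82) and Gli3 (0.75) had intervals that include 0. None of the 5 members was called, against 0.177% of 25962 features, and the groups did not overlap for 2 of them, Bcl11b and Lhx2 (40%, against 51.1% of all features). A share of 40% is not above that background. Leaving out KO adherent 1, the lone array of its group, left the Bcl11b difference at 1.48 but let fewer probes past the filter (21473 features), and the limma adjusted p was then 0.0399. Bcl11b was not well above background on WT floating 3, so it passed the filter of both fits through the KO arrays, where it is high. Both adjusted p-values of Bcl11b are therefore given as description.

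The WT arrays were then set against the Cbx3-deficient cells of both cultures, KO floating 1 to 3 with KO adherent 1, again without the 2 arrays, so that culture cannot be told apart from genotype for KO adherent 1. Bcl11b averaged -2.42 ± 0.14 in KO (SD, n = 4) and -3.89 ± 0.23 in WT samples (SD, n = 2). It was 2.78-fold higher in KO, a log2 difference of 1.47 (SE 0.16, 95% interval 1.08 to 1.86, limma adjusted p = 0.00919), and higher in 4 of 4 KO arrays than in either WT array. Because WT floating 3 was not well above background, Bcl11b entered the test through the KO arrays, and the fold rests in part on a spot that marks only an upper limit. The call is therefore given as description. With no filter on dim probes the limma adjusted p of Bcl11b was 0.0566. The second probe was below background in both WT samples, which gives only a bound: KO exceeded WT at least 2.18-fold. That probe, too, passed the filter through the KO arrays alone, so no p-value is given for the bound. Normexp background correction, which raises dim spots, reduced the difference to 0.60 (limma adjusted p = 0.028), and with all 8 arrays as labelled it was 0.87 (limma adjusted p = 0.863).

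Lhx2 in this comparison averaged 2.70 ± 0.40 in KO (SD, n = 4) and 1.79 ± 0.31 in WT samples (SD, n = 2). The difference of 0.91 (SE 0.28, 95% interval 0.22 to 1.59) was 1.87-fold, and every KO array lay above both WT arrays, but the limma adjusted p was 0.0718. With the replicate number as a block it was 0.66 with a limma adjusted p of 0.0357, and without KO floating 3 it was 1.04 with a limma adjusted p of 0.0449. Lhx2 was not called in the other 14 of 16 alternatives. Among these, the limma adjusted p was 0.211 with no filter on dim probes and 0.146 without KO adherent 1. Emx2 gave -0.38 (interval -0.95 to 0.19), Otx2 -0.82 (interval -1.81 to 0.16) and Gli3 0.74 (interval -0.38 to 1.85), none past the threshold. In all 1 of 5 members was called (20%), where 17.3% of 21463 features were, and 2 of 5 did not overlap (40%), where 53.4% of features did not. The members' shares are near the background, and no result about them as a set follows. Their median difference was 0.74, and that of all features -0.07.

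The slide carried its arrays in 2 rows, each holding both genotypes, and the 6 arrays were also read within each row. In the first row Bcl11b read -2.56 and -2.23 on KO floating 1 and 2, against -3.73 on WT floating 1. In the second it read -2.44 on KO adherent 1 and -2.46 on KO floating 3, against -4.05 on WT floating 3. Lhx2 likewise was 2.56 and 3.24 on KO floating 1 and 2, against 2.01 on WT floating 1 in the first row, and 2.68 and 2.30 on KO adherent 1 and KO floating 3, against 1.57 on WT floating 3 in the second. For both genes these KO arrays were higher than the WT array of their row. Since the groups did not overlap on the 6 arrays, no other order was possible, and the rows add no support. The order does not hold with the other 2 arrays included. In the first row the array labelled WT floating 2 read -2.23 for Bcl11b and 2.69 for Lhx2, above KO floating 1.

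**Figure D2:**
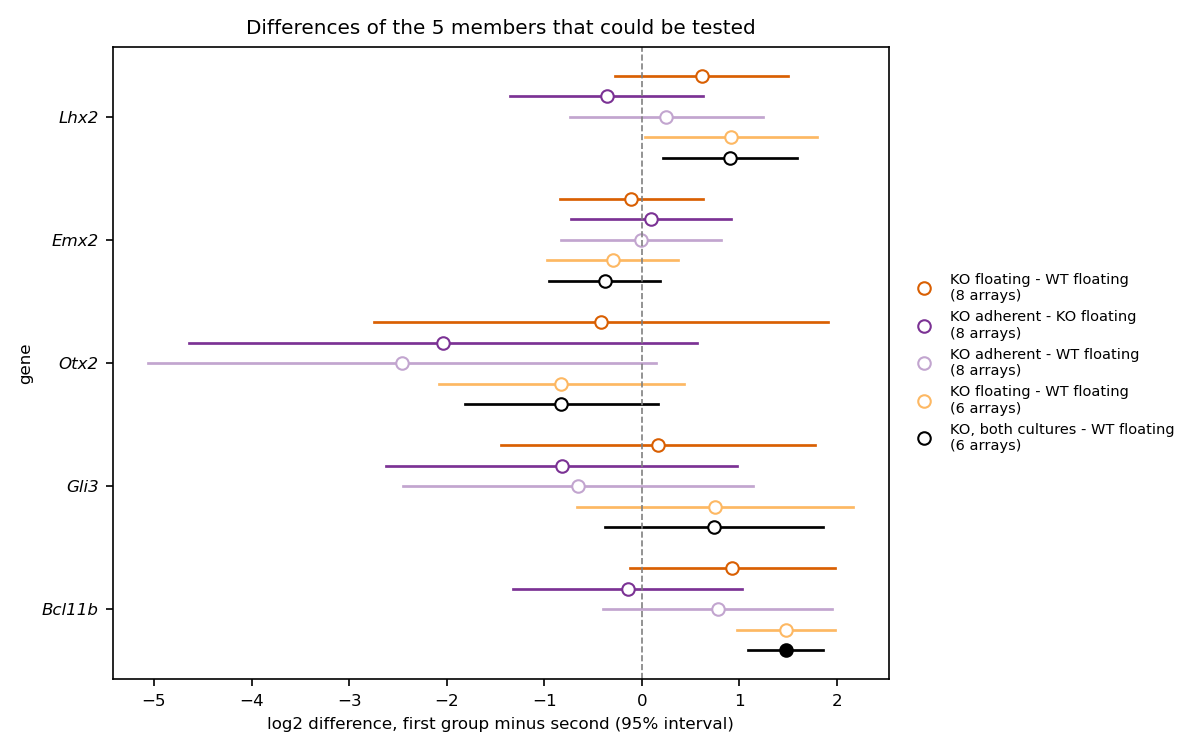
Log2 difference (x axis, first group minus second) with 95% intervals for the 5 genes that could be tested, in 5 comparisons that share arrays. The filled point is the one with a limma adjusted p under 0.05, Bcl11b in KO of both cultures against WT on 6 arrays (1.47). Bcl11b passed the filter of that comparison through the KO arrays, so the point is a description. All Emx2, Otx2 and Gli3 intervals include 0.

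KO adherent and KO floating cultures were compared to see whether attachment changed these factors. As labelled, none of the 5 members was called (0% of 22647 features were) and none had groups without overlap (12.8% of features did). There were 253 features with an unadjusted p below 0.05 and no member among them. Otx2 showed the widest gap at -2.04 (SE 1.11, 95% interval -4.64 to 0.57, limma adjusted p = 0.99), and this value came from 1 array: without KO adherent 2 the difference was -0.01. Lhx2 differed by -0.36 (interval -1.35 to 0.63), Gli3 by -0.82 (interval -2.62 to 0.98), Bcl11b by -0.15 (interval -1.32 to 1.03) and Emx2 by 0.10 (interval -0.72 to 0.91). Without the 2 arrays, where a lone adherent sample is assumed to vary like the other groups, Lhx2 gave -0.03, Gli3 -0.05, Bcl11b -0.02 and Emx2 -0.32.

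KO adherent against WT floating cultures combines culture and genotype, which cannot be told apart there. It shares its KO adherent arrays with the comparison above and its WT arrays with the comparisons of genotype. No member was called (0.00442% of features were) and none had groups without overlap (10.6% of features did), with 406 features and no member at an unadjusted p below 0.05. Otx2 was 2.45 lower (-2.45, SE 1.11, 95% interval -5.06 to 0.15, limma adjusted p = 1) and -0.42 without KO adherent 2, Bcl11b 0.78 higher (interval -0.39 to 1.95), and Gli3 (-0.65), Lhx2 (0.25) and Emx2 (-0.01) were nearer to 0.

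Genes with the most similar course over the 8 arrays were sought among 11858 others above background on every array, by the root mean square difference of log2 values centred on each gene's mean. For Lhx2 these were Tmem198 (0.0723), a transmembrane protein, and Ston2 (0.075), an endocytic adaptor. For Emx2 they were Fgd4 (0.0954), a guanine nucleotide exchange factor of Cdc42, and 8030462N17Rik (0.102). For Gli3 they were Dab2 (0.187), an endocytic adaptor, and Trim12a (0.216).

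Otx2 had no close match. Nearest was Zic1 (0.747), a zinc finger factor related to the Gli proteins, then Pcp4l1 (1.03). Zic1 read 4.31 on KO adherent 1 and -1.47 on KO adherent 2, and between 3.81 and 4.53 on the floating arrays, so it shared the drop on the array labelled KO adherent 2. Regional genes went in both directions there. The patterning, ganglionic eminence and midbrain to spinal cord lists held 47 genes above background on at least 1 array. Of these, 8 were lowest and 9 were highest on the array labelled KO adherent 2. The same counts were not made for the other arrays, and a gene could be counted by a value not well above background. An even spread over 8 arrays would put 1 in 8 of the genes at each extreme, so the counts are description only. Named after their values were seen, Dlx2 read -6.54 there and -3.63 to -2.29 elsewhere, Irx2 -3.19 there and -1.06 to 0.73 elsewhere, and En2 -2.76 there and -1.21 to 0.18 elsewhere. In the other direction Dlx1, a close relative of Dlx2, read -2.08 there and -4.34 to -3.26 elsewhere, and Dmrta2 -0.45 there and at most -1.37 elsewhere. The interneuron factor Lhx6 read 2.22 on the same array, within its range of 2.03 to 3.27 on the others. Likeness is a description over 8 arrays of 1 slide that share scanning and scaling.

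**Figure D3:**
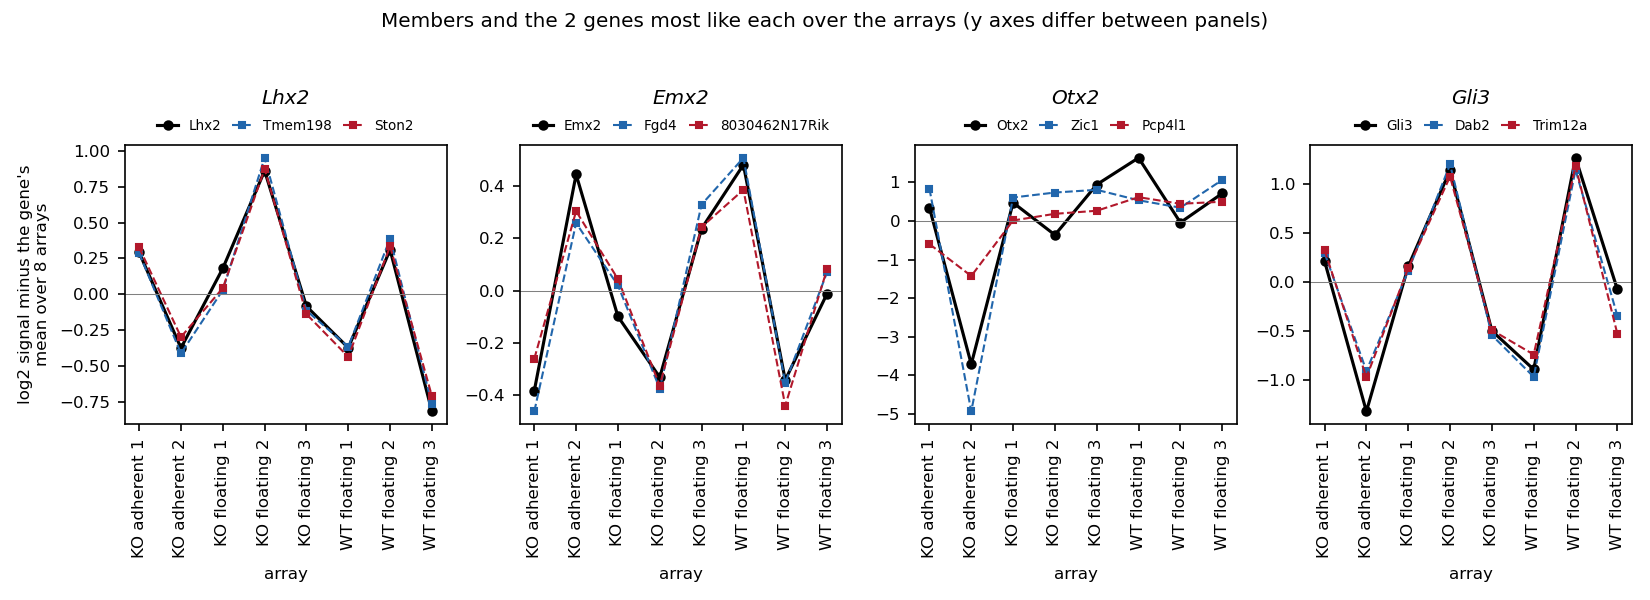
Log2 signal minus each gene's mean over the 8 arrays (y axis, scaled separately in each panel) for the 4 genes detected on all arrays and the 2 genes most like each. Lhx2, Emx2 and Gli3 are followed closely by their nearest genes, and the Otx2 panel is set by the array labelled KO adherent 2, where Zic1 is low as well.

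The wider set of dorsal forebrain and cortical patterning genes gave a mixed picture. Of 25 listed genes, 11 were above background on all 8 arrays and 7 on none, among them Fezf2, Hesx1 and Lmx1a. In KO of both cultures against WT on 6 arrays, 3 of 12 tested rose and 1 fell, with a median of 0.49. Among all features 8.99% were called higher and 8.35% lower in this comparison, and with so few genes tested these counts, like those of the lists that follow, are given as description. The Wnt ligand Wnt7a rose to 1.06 ± 0.46 in KO, against -0.83 ± 0.29 in WT samples (SD, n = 4 and 2, difference 1.89, limma adjusted p = 0.0196). The LIM-only cofactor Lmo3 rose by 1.87 (limma adjusted p = 0.035) and Pax6, a paired-box factor of cortical progenitors, by 0.53 (limma adjusted p = 0.0499). Six3, an anterior forebrain and eye-field repressor, fell to -0.98 ± 0.96 in KO, against 1.67 ± 0.36 in WT samples (difference -2.65, limma adjusted p = 0.036).

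Genes of cortical projection neurons showed no call among 9 tested of 21, and their median was -0.04. The glutamatergic and proneural genes Neurog1, Neurod1, Neurod6, Fezf2, Slc17a6 and Reln were above background on no array, as Eomes was. The brightest measured members were Nfib (5.69 to 5.94), Sox5 and Cux1, which progenitors and glia also use. Among 19 ganglionic eminence and GABAergic genes 9 were tested, and 1 passed the threshold: Ebf1, a factor of striatal neurons, fell by 1.12 (limma adjusted p = 0.0195). The median over the list was -0.18.

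Of the Hedgehog and Gli pathway, in which Gli3 acts, 13 of 16 genes were above background on all arrays, including the receptor Ptch1, the transducer Smo and Gli2. The ligand Shh and the activated target Gli1 were above background on no array. In the same comparison 1 of 14 tested genes changed: Spop, an adaptor for degradation of Gli proteins, fell by 0.65 (limma adjusted p = 0.0446), and the median was 0.01. Of 22 midbrain, hindbrain and spinal cord genes 9 were tested and none was called, with a median of 0.12. Irx3, a homeobox gene and one of the brightest of them, differed by 0.12 (95% interval -0.41 to 0.65, limma adjusted p = 0.718). En1, Hoxb2 and Olig3 were above background on no array.

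All 15 neural stem and radial glia genes were above background on every array. Between KO of both cultures and WT samples 7 of them passed the threshold, 4 higher and 3 lower in KO. The Notch target Hes5 rose by 3.22 (limma adjusted p = 0.00762), Nr2e1, a nuclear receptor of stem cells, by 1.04 and the glial glutamate transporter Slc1a3 by 1.002, with limma adjusted p-values of 0.0273 and 0.0303. The matrix protein Tnc fell by 2.09, and the intermediate filaments Nes and Vim fell by 0.80 and 0.68, with limma adjusted p-values of 0.0238, 0.0495 and 0.0365. In the other 4 comparisons no gene of any of these lists was called.

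Markers of other cell types that a culture started from brain tissue could carry were detected in part. Of 10 microglial genes 6 (Aif1, Cx3cr1, Tyrobp, C1qa, C1qc and Ptprc) were above background on no array, and Itgam and Csf1r were on all 8. Their summed signal, in multiples of the 75th percentile, ranged from 13.5 to 27.4 in KO adherent samples, from 16.2 to 22.8 in KO floating samples and from 14.2 to 15.2 in WT floating samples. Of 10 endothelial and blood genes 5, among them Cldn5 and Cdh5, were above background on no array, and Kdr, Flt1 and Pecam1 were on all 8. The sum ran from 13 to 20 in KO adherent samples, from 12.3 to 13.8 in KO floating samples and from 12.7 to 16.8 in WT floating samples. Of 10 mesenchymal genes Lum, Rgs5 and Pdgfrb were above background on no array, and the sum ran from 2.2 to 5.31 in KO adherent samples, from 1.43 to 3.55 in KO floating samples and from 2.15 to 5.68 in WT floating samples. These ranges overlapped between groups except that WT floating sums of microglial genes lay below those of KO floating samples, and no gene of the 3 lists was called in any comparison. That gap follows the brightest gene, Itgam, which read 4.37, 3.89 and 4.18 on KO floating 1 to 3. On WT floating 1 to 3 Itgam read 3.64, 3.78 and 3.58. Csf1r, next in brightness, overlapped, at 0.85, 0.16 and 1.21 on KO floating and 1.09, 0.11 and 0.97 on WT floating arrays. The sums are therefore no measure of microglial content. The part of these cells in the members' levels was not tested. In bulk RNA fewer cells expressing a gene and less RNA per cell cannot be told apart, for any value above.

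**Figure D4:**
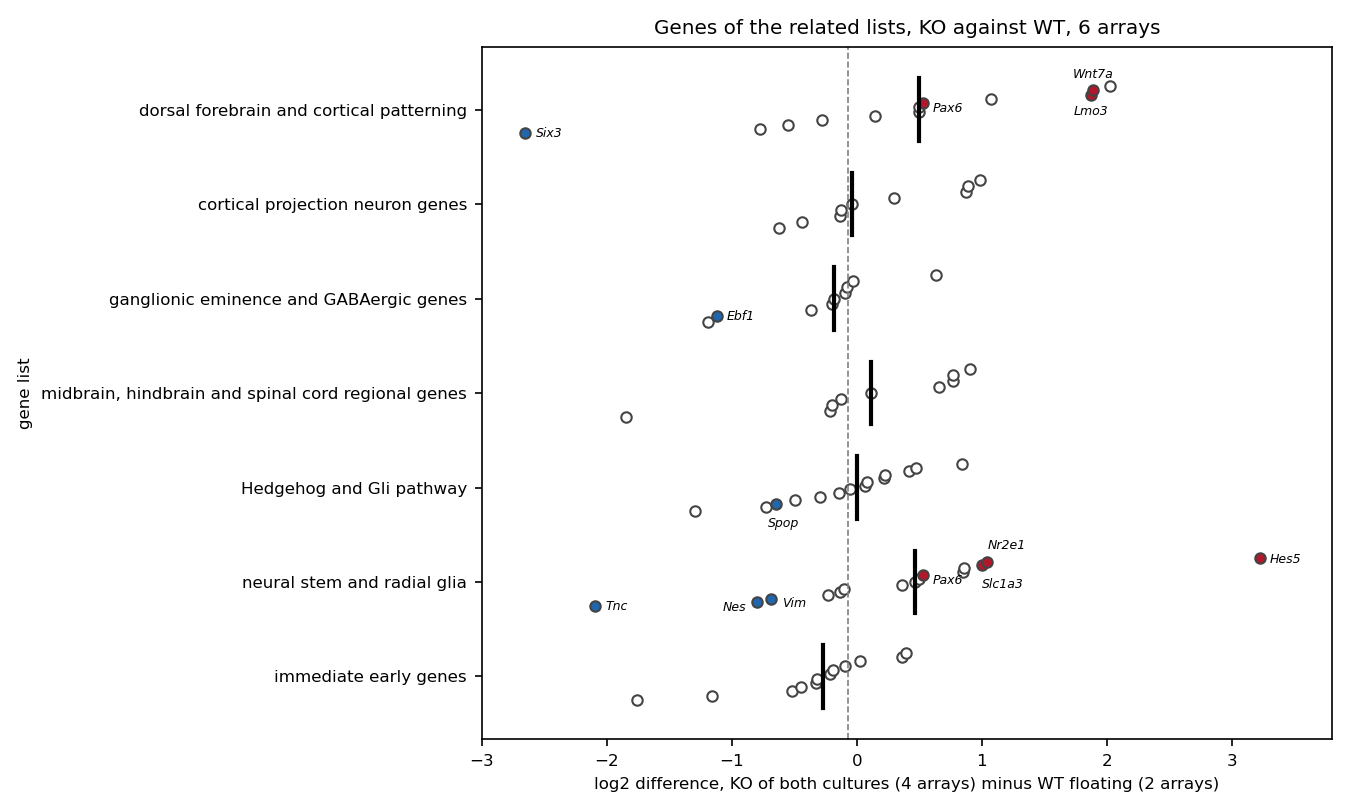
Log2 difference of each tested gene (x axis, KO of both cultures on 4 arrays minus WT floating on 2 arrays) in 7 gene lists, with called genes filled and named. Thick bars are list medians and the dashed line is the median of all features (-0.07). Calls go in both directions within the patterning and the stem cell lists.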

How the data were processed

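Single-colour (Cy3) Agilent arrays of 8 samples were analysed, grouped by the genotype and culture in the labels. The deposited scanner files hold the intensity of each spot on a linear scale, made with Agilent Feature Extraction 11.0.1.1 per the file headers (9.1.3.1 per the submitters' processing notes). The authors' value table held the same intensity, within 0.01% for 99.2% of probes on WT floating 1. Here log2 of the processed signal minus each array's 75th percentile was taken, outlier spots were left out (200 probes lacked a value on at least 1 array) and repeat spots were averaged. Probes entered a test where every array of some group showed them well above background, and each gene was represented by its brightest probe. Through accessions, 27235 of 55681 probes matched a RefSeq gene (GRCm38.p6).

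All features were fitted together in R 4.3.3 by limma 3.58.1 (lmFit and eBayes on contrasts, two-sided, Benjamini-Hochberg over all features, threshold 0.05). Where a probe was dim throughout a group, the fold is a bound: each dim array entered at the lowest signal that was well above background there, or at the probe's own signal where that was higher. The fits were tested on simulated data. The number of arrays limits precision, and p-values measure the spread between embryos of 1 slide.

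The members, the 10 gene lists, the 6-array comparisons and the rule for named genes (all members, Cbx3, up to 6 called genes per list or otherwise up to 3 of its brightest, and the 2 genes most like each member detected everywhere) were chosen with earlier results of these data known. Lists of choroid plexus and retina genes, Emx2os, and the fit of all 8 arrays with KO cultures joined were added after the values were seen. Some genes of these lists are not reported here and enter no count or median. Alternatives were quantile normalization, normexp (offset 50, on median signals), the authors' table, other probe filters, every probe, a trended robust variance, only the groups compared, replicate and slide-row blocks, and leaving out each array.

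The replicate numbers were checked through deviations from group means, which correlated between same-numbered KO and WT floating arrays (values across genes of 0.103, 0.59 and 0.335), but also between KO floating 3 and WT floating 1 (0.346), and not for pairs with an adherent array (-0.63 to -0.0544). Whether the numbers pair the samples is therefore uncertain. The main comparisons used no pairing, and the replicate block was an alternative only.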

Additional observations from a re-analysis of the deposited data

Results flagged for a closer look

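Otx2 on the array labelled KO adherent 2 read -0.34, far from the other KO-labelled arrays, the nearest of which read 3.01. The gap to the nearest array made up most of the range of the 5 KO-labelled arrays. Such a gap arises by chance in about 1 in 20 groups, and this was the 1 found in 14 sets examined. Cbx3 on the same array opposed its label (5.91), and Zic1 (-1.47) was low there as well. Of 47 regional genes 8 were lowest and 9 highest on this array, with Dlx2 (-6.54) among the low and Dlx1 (-2.08) among the high ones. These counts were not made for the other arrays and are description only. Whether the array's label, its cells or its culture goes with the low Otx2 signal was not tested.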

How the results depend on the processing

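The comparisons of KO floating with WT floating, KO adherent with KO floating and KO adherent with WT floating samples on all 8 arrays called 0 members under each of 19 alternatives. KO floating against WT floating on 6 arrays gave 0 to 1 members when single arrays were left out, the 1 being Bcl11b without KO adherent 1. There, too, Bcl11b passed the filter through the KO arrays, and the call is a description. KO of both cultures against WT on 6 arrays called 1 member, and 11 of 16 alternatives kept that count. With no filter on dim probes it called 0 (Bcl11b at an adjusted p of 0.0566, with more features tested), and with probes above background on every array 0, since Bcl11b was then not tested. With all 8 arrays joined, a setting chosen after seeing the data, it called 0. With the replicate block it called 2 (Bcl11b 1.39, adjusted p 0.022, and Lhx2 0.66), and the block changed no other call. Leaving out single arrays gave 1 to 2 members, the 2 without KO floating 3. Over all alternatives the limma adjusted p of Bcl11b ranged from 0.00906 to 0.863 and that of Lhx2 from 0.0357 to 0.863. Signs turned only for differences that were not called. In KO floating against WT floating samples, leaving out single arrays moved Gli3 between -0.33 and 0.75 (-0.27 without KO floating 2), Emx2 between -0.30 and 0.11 (0.0266 without KO floating 2) and Otx2 between -0.82 and 0.0153, the last without WT floating 1. In KO adherent against KO floating samples, the slide row as a block turned Bcl11b to 0.23, Lhx2 to 0.10 and Emx2 to -0.0288, and Emx2 was -0.32 without the 2 arrays and ran from -0.32 to 0.51 when single arrays were left out (-0.0387 without KO floating 2). In KO adherent against WT floating samples, Emx2 was 0.0498 with the replicate block and ran from -0.43 to 0.40 when single arrays were left out (0.21 without WT floating 1). Gli3 was 0.70 without the 2 arrays and ran from -1.42 to 0.11, and Lhx2 ran from -0.0814 to 0.58 (-0.0098 without WT floating 3). With all 8 arrays joined, Gli3 was -0.16. The cause was not tested. Signal over background limits Emx1, Tbr1 and Eomes, and in WT samples Bcl11b.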

Other observations

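Emx2os, a transcript antisense to Emx2, was named after its values were seen. Its brighter probe read -3.42 and -2.23 on KO adherent 1 and 2, -3.73, -2.65 and -3.56 on KO floating 1 to 3, and -4.05, -3.24 and -4.22 on WT floating 1 to 3. It was not well above background on WT floating 1 and 3, and its second probe was on no array. The KO adherent arrays and the KO floating arrays lay above WT floating 1 and 3, and the array labelled WT floating 2 lay among them, while Emx2 itself overlapped between all groups.

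Lists of choroid plexus and retina genes, tissues in which Otx2 stays on, were added after the values were seen. The choroid plexus markers Ttr and Sostdc1 and the retinal markers Crx and Six6 were above background on no array, while the choroid plexus gene Enpp2 and the pigment cell genes Mitf and Pmel were on all 8. Kcnj13, a choroid plexus channel, read -3.17 and -4.34 on KO adherent 1 and 2, and -3.45, -3.40 and -3.58 on KO floating 1 to 3. On WT floating 1 to 3 it read -4.59, -3.33 and -4.33, and it was not well above background on WT floating 1 and 3. The eye-field homeobox gene Rax read -2.39 and -2.39 on KO adherent 1 and 2, -2.77, -1.90 and -3.49 on KO floating 1 to 3, and -4.22, -2.67 and -5.25 on WT floating 1 to 3. Rlbp1, a retinoid-binding protein of glia and pigment epithelium, read -2.76 and -5.07 on KO adherent 1 and 2, -2.57, -1.76 and -3.10 on KO floating 1 to 3, and -4.75, -1.71 and -5.75 on WT floating 1 to 3. Both were not well above background on WT floating 1 and 3, and passed the filter of the 6-array comparison only through the KO arrays where they are high, as Kcnj13 did. Rlbp1 and Kcnj13 were well above background on only 5 arrays, and on KO adherent 2 both read between WT floating 1 and 3. The levels of Rax, Rlbp1 and Kcnj13 are therefore a description, with no test.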
